A study of Caenorhabditis elegans with 10 samples.

Results

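The *Caenorhabditis elegans* mutants *smg-1(rrr59)* and *smg-2(rrr60)*, each hit in a different factor of nonsense-mediated mRNA decay (NMD), were set directly against each other, gene by gene, in whole young adults kept at 20°C. The contrast used 4 of the 10 samples of the series, 2 libraries of each mutant, chosen by their genotype labels and columns. The 2 libraries of the wild-type strain N2 at 20°C stayed outside the contrast and show which mutant departed from wild type. They also entered the estimate of the spread and the filter on low values. The series also holds 2 *clk-2* libraries at 20°C and 1 library each of *clk-2* and N2 from animals moved to 25°C for 3 hours. The columns taken as *clk-2* were matched by elimination, since their name matches no label, and the 2 at 20°C entered only the estimate of the spread and the filter on low values. Both *smg* alleles came from chemical mutagenesis of a strain with the transgene *rrrSi482* on chromosome II, in which the *dpy-30* promoter drives GFP fused to histone H2B, with a 3’ end from *ets-4* and a rescuing copy of *unc-119*. Both mutants were backcrossed once and still carry the transgene, whereas N2 lacks it. Each mutant is 1 line, so other mutations of the line and the *smg* mutation cannot be told apart. The labels do not say that the libraries of a group came from separate cultures, so p-values measure only the spread between these libraries, which may be technical.

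NMD removes mRNAs whose translation ends too early, along with normal mRNAs that carry long 3’ ends, upstream reading frames or particular splice forms. SMG-2, the worm UPF1, is an RNA helicase at the core of the pathway. SMG-1 is a kinase of the PI3K-related family that phosphorylates SMG-2, and SMG-5, SMG-6 and SMG-7 act on phosphorylated SMG-2. Loss of either protein blocks the pathway in worms while the animals stay viable, so the contrast asks in which mRNAs 2 mutants of one pathway differ.

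Values are normalized read counts, meaning reads on the exons of a gene divided by the size factor of the library. Library totals were 8412266 and 10607715 reads in *smg-1*, 13732465 and 13772843 reads in *smg-2*, and 13755869 and 12253389 reads in N2, so the *smg-1* libraries were the shallower ones. The 2 libraries of a group correlated at 0.990 (*smg-1*), 0.991 (*smg-2*) and 0.975 (N2) (Pearson, log2 values, across genes, which are not independent replicates). Their median absolute log2 difference was 0.15 in *smg-1*, 0.14 in *smg-2*, 0.23 in N2 and 0.24 in the columns taken as *clk-2* at 20°C. All of these groups entered the spread. The markers of the tissues of a whole adult were present, with 30 of 30 *msp* genes of sperm, 34 of 34 oocyte and eggshell genes, 19 of 19 muscle genes, 20 of 20 intestinal genes and 22 of 23 neuronal genes passing the filter of a mean of at least 10.

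Few genes separated the mutants. Of 13869 genes tested, 131 (0.945%) differed between *smg-1* and *smg-2* at an adjusted p under 0.05 (limma with Benjamini-Hochberg adjustment over all genes tested). Of these, 62 (0.447% of the genes tested) were higher and 69 (0.498%) were lower in *smg-1*. The differences ran from 0.56 to 4.72 on the log2 scale in the genes that were higher, and from -0.51 to -2.81 in those that were lower, and 31 and 44 of them were over 2-fold. The median difference of all genes was -0.03, so more genes lay below 0 than above it, with quartiles at -0.19 and 0.17. The 5th percentile was -0.55 and the 95th 0.70. Genes with a mean of at least 100 had a median of -0.05. At an unadjusted p under 0.05, 914 genes (6.59%) were higher and 952 (6.86%) lower in *smg-1*. With the rule of log2 beyond 1 and an unadjusted p under 0.05, the counts were 251 higher (1.81%) and 122 lower (0.88%). In all 131 called genes both *smg-1* libraries lay on one side of both *smg-2* libraries, as they did in 55.1% of all genes tested. With 2 libraries against 2 an exact two-sided permutation test of a single gene cannot go below 0.333, so the calls rest on the spread that limma shares across genes. Fitting the 4 *smg* libraries alone called 851 genes higher (6.14%) and 709 lower (5.11%), 11.2% in all, which include all 131. edgeR called 110 higher (0.793%) and 75 lower (0.541%), 1.33% in all. DESeq2 called 189 higher (1.69%) and 181 lower (1.62%), 3.31% of the 11180 genes to which it gave an adjusted p. Leaving out either *smg-1* library left 0 called genes in limma, leaving out *smg-2* replicate 1 left 3 and leaving out *smg-2* replicate 2 left 2, in fits where the remaining library of that mutant is assumed to vary like the other groups. In each of those fits all 131 genes kept their direction, which was fixed in advance, since the libraries of the mutants did not overlap in any of them.

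**Figure D1:**
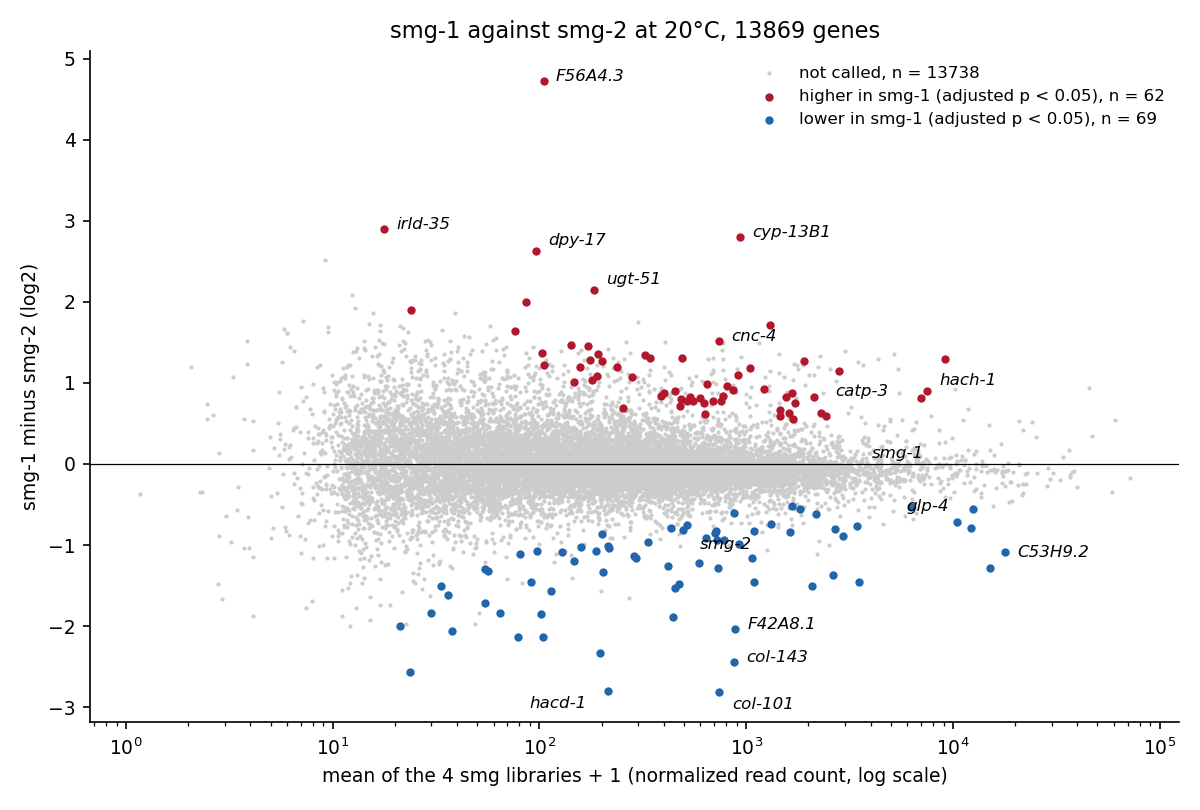
Difference between the mutants (log2 of *smg-1* minus *smg-2*, vertical axis) against the mean of the 4 *smg* libraries plus 1 (normalized read count, log scale, horizontal axis) for 13869 genes. Red points are the 62 genes called higher in *smg-1* and blue points the 69 called lower, at an adjusted p under 0.05 in limma, and grey points are the genes not called. *F56A4.3* stands apart at 4.72, and the called genes reach from under 100 to over 10000 normalized counts.

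The mutated genes themselves showed opposite orders of the mutants. *smg-2* (WBGene00004880, chromosome I, 1176473 to 1190829, plus strand) showed 996 and 967 normalized counts in *smg-1*, 1619.7 and 1673 in *smg-2*, and 1202 and 987 in N2. Its mRNA was thus lower in *smg-1* than in its own mutant, by log2 difference -0.75 ± 0.12 SE, adjusted p = 0.0252, and the *smg-1* libraries overlapped N2 while both *smg-2* libraries lay above it. The gene *smg-1* (WBGene00004879, chromosome I, 6900949 to 6913579, minus strand) showed 6206 and 5817 normalized counts in *smg-1*, 4933 and 4495 in *smg-2*, and 2222 and 2021 in N2. Both mutants lay above N2 for this mRNA, which encodes the kinase, and the difference between them did not pass the test (log2 difference 0.35 ± 0.11 SE, adjusted p = 0.185). The other factors sat close together in both mutants. Their log2 differences were -0.05 for *smg-3*, the worm UPF2, -0.14 for *smg-4*, the worm UPF3, -0.09 for *smg-5*, -0.02 for *smg-6*, the endonuclease of the pathway, and 0.01 for *smg-7*, with adjusted p-values from 0.68 to 0.992. *smg-5* had 546 and 451 normalized counts in *smg-1*, 531 and 526 in *smg-2*, and 255 and 254 in N2, so both mutants lay above wild type and overlapped each other. Of the 11 NMD factors listed, *smg-2* was the only one called (9.09%, against 0.498% of all genes called lower), also in edgeR and DESeq2. The fit of the 4 *smg* libraries alone called 1 higher and 1 lower, against 6.14% and 5.11% of all genes. With the replicate number as a block 0 were called, and *smg-2* had an adjusted p of 0.06 in limma. The transgene carries a copy of *unc-119*, which had 40.5 and 42.8 normalized counts in *smg-1*, 41.6 and 54.2 in *smg-2*, and 18.9 and 16.4 in N2, with both mutants above N2 and overlapping. *ets-4*, which gives the transgene its 3’ end, had 187 and 190.1 normalized counts in *smg-1*, 259.5 and 260.1 in *smg-2*, and 207 and 219 in N2, with *smg-1* below and *smg-2* above both N2 libraries, and was not called (log2 difference -0.46 ± 0.13 SE, adjusted p = 0.162, unadjusted p = 0.00607 in limma). *dpy-30*, the source of the promoter, differed by less than 0.01 on the log2 scale.

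The list with the most genes higher in *smg-1* was detoxification: cytochrome P450, UDP-glucuronosyltransferase (*ugt*) and glutathione S-transferase (*gst*) genes and short-chain dehydrogenases (*dhs*), which oxidize foreign and own metabolites and couple them to sugars or glutathione. Of 177 genes tested, 12 were higher in *smg-1* and 1, *dhs-20*, was lower, against 0.447% and 0.498% of all genes. The median of the list was 0.19, against -0.03 over all genes. At an unadjusted p under 0.05, 48 members were higher (27.1%, against 6.59% of all genes) and 12 lower (6.78%, against 6.86%). The 12 comprised 4 of 57 cytochrome P450 genes, 6 of 60 *ugt* genes and 2 of 33 *gst* genes. *cyp-13B1* (chromosome X, 13406674 to 13409643, minus strand) showed 1418 and 1808 normalized counts in *smg-1*, 336 and 157 in *smg-2*, and 93.3 and 50.8 in N2. Both *smg-1* libraries lay far above both *smg-2* libraries, and both mutants lay above N2 (log2 difference 2.80 ± 0.38 SE, adjusted p = 0.0133). *ugt-51* had 258 and 340.0 normalized counts in *smg-1*, 65.1 and 67.1 in *smg-2*, and 61 and 51.5 in N2. It was high in *smg-1* and lay just above wild type in *smg-2* (log2 difference 2.15 ± 0.24 SE, adjusted p = 0.00973). *cyp-34A9* had 114 and 158 normalized counts in *smg-1*, 34.2 and 31.8 in *smg-2*, and 57.5 and 62.5 in N2. Here the mutants stood on opposite sides of N2 (log2 difference 1.99 ± 0.23 SE, adjusted p = 0.00973). Its neighbour *cyp-34A8*, 310 bp away on chromosome V, had 1189 and 1298 normalized counts in *smg-1*, 586 and 574 in *smg-2*, and 589 and 449.7 in N2. The *smg-2* libraries overlapped N2 and the *smg-1* libraries lay above both (log2 difference 1.10 ± 0.14 SE, adjusted p = 0.0101). *cyp-35A5* had 213 and 199.6 normalized counts in *smg-1*, 83.8 and 65 in *smg-2*, and 80.7 and 105 in N2, with the same order of groups (log2 difference 1.47 ± 0.18 SE, adjusted p = 0.0101). *ugt-13* had 489.8 and 438 normalized counts in *smg-1*, 182 and 181 in *smg-2*, and 159 and 167 in N2. Its difference of 1.35 on the log2 scale had an adjusted p of 0.00973 in limma. *ugt-53*, *ugt-33*, *ugt-47* and *ugt-41* were higher in *smg-1* by 1.31, 1.89, 0.75 and 0.75 on the log2 scale, and the call of *ugt-33*, the lowest of them, was lost with reads thinned to the shallower library (adjusted p = 0.0954). *gst-4* and *gst-10* were higher by 0.78 and 0.82. The *gst* family as a whole did not lean to *smg-1*, since 13 of its 33 genes lay above 0 and 20 below, with a median of -0.06. *dhs-20*, the exception, had 176 and 179 normalized counts in *smg-1*, 419.8 and 362 in *smg-2*, and 307 and 226 in N2, with *smg-1* below and *smg-2* above wild type.

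The largest difference of all was in *F56A4.3* (chromosome V, 2453414 to 2456147, plus strand), which showed 217 and 182 normalized counts in *smg-1*, 3.35 and 12.2 in *smg-2*, and 40.7 and 36.7 in N2. The gene was high in *smg-1*, near 0 in *smg-2* and between them in N2 (log2 difference 4.72 ± 0.43 SE, adjusted p = 0.00433). *irld-35*, a gene with an insulin and EGF receptor-like L domain on the same chromosome (2348215 to 2350325, minus strand), showed 29.8 and 30 normalized counts in *smg-1*, 2.01 and 4.74 in *smg-2*, and 11.9 and 12.5 in N2. The order of the groups was the same at a lower level (log2 difference 2.89 ± 0.41 SE, adjusted p = 0.0162). *dpy-17*, a cuticle collagen needed for normal body length, had 165 and 164 normalized counts in *smg-1*, 30.9 and 21.7 in *smg-2*, and 20.3 and 17.2 in N2. It stood apart in *smg-1*, while *smg-2* lay close to wild type (log2 difference 2.62 ± 0.27 SE, adjusted p = 0.00821). *catp-3*, which encodes a P-type cation ATPase, had the narrowest error among the strong calls, with 3947 and 3819 normalized counts in *smg-1*, 1747 and 1759.9 in *smg-2*, and 757 and 823 in N2. Both mutants lay above N2, and *smg-1* was 2.21-fold above *smg-2* (log2 difference 1.15 ± 0.10 SE, adjusted p = 0.00433). *cnc-4*, a caenacin antimicrobial peptide gene, had 967 and 1219 normalized counts in *smg-1*, 387 and 368 in *smg-2*, and 184 and 203 in N2. It was the only one of 33 antimicrobial peptide genes called with all 8 libraries in limma (3.03%, against 0.447% of all genes). edgeR and DESeq2 each called 3 higher, against 0.793% and 1.69% of all genes. The 4 *smg* libraries alone gave 9 higher and 1 lower, against 6.14% and 5.11% of all genes. The list had a median of 0.34 and 23 members above 0, and the medians of the single library pairs ran from -0.04 to 0.64. *lgc-54*, a ligand-gated ion channel, had 236 and 314 normalized counts in *smg-1*, 112 and 100.3 in *smg-2*, and 44.9 and 39 in N2, with both mutants above wild type. *C09B8.4* had 1777 and 2217 normalized counts in *smg-1*, 738 and 492 in *smg-2*, and 591 and 556 in N2. *math-44* (a MATH domain gene), *F47H4.2* and *T10B5.8* were higher in *smg-1* by 1.37, 1.45 and 1.64 on the log2 scale, and thinning ended the calls of *F47H4.2* (adjusted p = 0.0544 in limma) and *T10B5.8* (adjusted p = 0.0696). *nhr-101* and *nhr-137* were the 2 of 169 nuclear hormone receptors called (1.18%, against 0.447% of all genes), and were higher in *smg-1* by 0.83 and 1.19, with 115 of the 169 above 0 and a median of 0.14. *hach-1*, which encodes a hydrolase of valine breakdown, was an abundant enzyme among the genes higher in *smg-1*, with 8966 and 10610.4 normalized counts in *smg-1*, 5615 and 4888 in *smg-2*, and 4529 and 4124 in N2 (log2 difference 0.90 ± 0.12 SE, adjusted p = 0.0123). *rps-17*, a protein of the small ribosomal subunit, had 9486 and 8332 normalized counts in *smg-1*, 5311 and 4788 in *smg-2*, and 5136 and 5844 in N2. It was higher in *smg-1* (log2 difference 0.82 ± 0.12 SE, adjusted p = 0.0157), where *smg-2* overlapped N2. *rpl-1*, of the large subunit, had 10118 and 10114 normalized counts in *smg-1*, 15036 and 14689 in *smg-2*, and 9548 and 10028 in N2, so *smg-2* stood above wild type while *smg-1* lay close to it (log2 difference -0.55 ± 0.10 SE, adjusted p = 0.04, 0.0562 with TMM factors). The other 77 of the 79 cytosolic ribosomal protein genes were not called, and 66 of the 79 lay below 0. Their median was -0.10, against -0.03 over all genes, and -0.04 under quantile normalization, against -0.02.

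**Figure D2:**
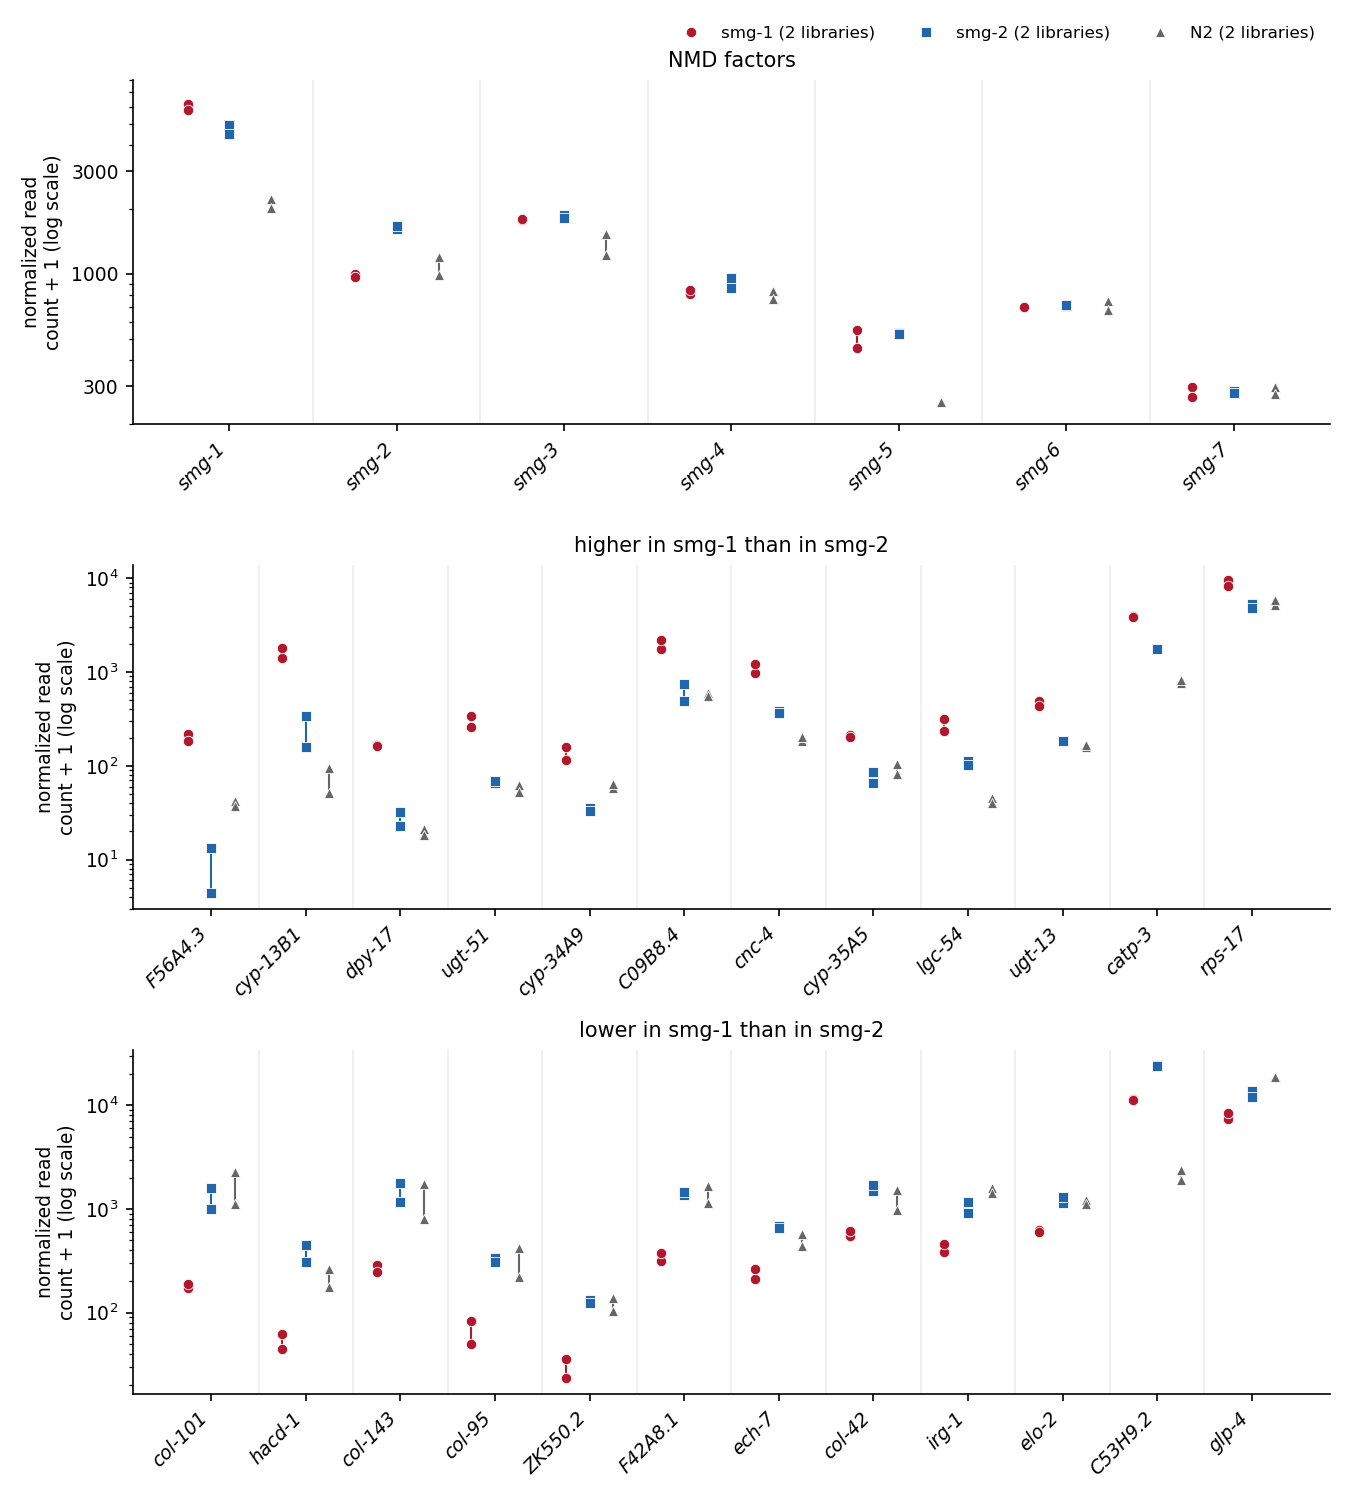
Normalized read count plus 1 (log scale, vertical axis) of single libraries for the NMD factors *smg-1* to *smg-7* (top), 12 genes called higher in *smg-1* (middle) and 12 called lower (bottom). Red circles are *smg-1*, blue squares *smg-2* and grey triangles N2, with 2 libraries each joined by a line. The libraries of the mutants do not overlap in any gene of the lower panels, and *F56A4.3* and *cyp-34A9* show *smg-1* above and *smg-2* below wild type.

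The cuticle collagens split into opposite directions. These genes encode the structural proteins of the cuticle, and the hypodermis makes them in waves around each moult. Of 128 tested, 4 were higher in *smg-1* (3.12%, against 0.447% of all genes: *dpy-17*, *col-161*, *col-180* and *col-155*) and 13 were lower (10.2%, against 0.498%: *col-101*, *col-135*, *col-143*, *col-95*, *col-103*, *col-42*, *col-8*, *col-98*, *col-119*, *col-149*, *col-96*, *col-80* and *col-142*). TMM factors ended the calls of *col-98* and *col-80* (adjusted p = 0.0513 in limma for each), and thinning that of *col-96* (adjusted p = 0.055). With the replicate number as a block, 1 collagen was called higher and 9 lower, out of 31 and 34 genes called in all. Of the 128, 94 lay above 0 and the median was 0.66, so the median and the calls point in opposite directions. At an unadjusted p under 0.05, 39 were higher (30.5%, against 6.59% of all genes) and 23 lower (18%, against 6.86%). The libraries of the mutants did not overlap in 111 of the 128 (86.7%, against 55.1% of all genes). The median stayed above 0 under quantile normalization, TMM scaling, edgeR and thinning. *col-101* (chromosome IV, 325435 to 327020, minus strand) showed 171 and 188 normalized counts in *smg-1*, 1003 and 1601 in *smg-2*, and 2269 and 1117 in N2. Both *smg-1* libraries lay far below *smg-2* and N2, which overlapped (log2 difference -2.81 ± 0.33 SE, adjusted p = 0.00973). *col-143* had 285 and 245 normalized counts in *smg-1*, 1160.3 and 1790.4 in *smg-2*, and 1759 and 799 in N2, and *col-95* had 49 and 81.4 normalized counts in *smg-1*, 339 and 308 in *smg-2*, and 421 and 220.2 in N2. Both showed the same order of groups. *col-42* had 543 and 615 normalized counts in *smg-1*, 1481 and 1707 in *smg-2*, and 1514 and 981 in N2 (log2 difference -1.46 ± 0.19 SE, adjusted p = 0.0123). *col-119*, the most abundant of the 13 in N2, had 7525 and 10129.9 normalized counts in *smg-1*, 20587 and 22099 in *smg-2*, and 28057 and 20519 in N2. *col-161* went the other way with 13958 and 12072 normalized counts in *smg-1*, 4881 and 5774 in *smg-2*, and 3571 and 6641 in N2 (log2 difference 1.29 ± 0.23 SE, adjusted p = 0.0398). Summed over the 13 genes called lower, the libraries held 24164 and 29680 normalized counts in *smg-1*, 57599 and 62300 in *smg-2*, and 72840 and 52805 in N2. Summed over the 94 collagens above 0, they held 154647 and 138505 in *smg-1*, 73804 and 75777 in *smg-2*, and 49667 and 120310 in N2. All 128 together summed to 406407 and 435651 in *smg-1*, 426003 and 444635 in *smg-2*, and 446590 and 472195 in N2, so the totals of the mutants overlapped.

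The 2 wild-type libraries differed from each other in these same genes. N2 replicate 1 was above N2 replicate 2 in 13 of the 13 collagens called lower in *smg-1*, and below it in 89 of the 94 collagens above 0, with a median of -1.73 on the log2 scale over those 94. Over all genes tested, N2 replicate 1 was the higher in 49.5%. This difference within wild type entered the spread of the fit. With only the 4 *smg* libraries, 70 collagens were called higher and 25 lower in *smg-1*, against 10 and 13 in edgeR and 13 and 17 in DESeq2. Of all genes, the 4 *smg* libraries alone called 6.14% higher and 5.11% lower, edgeR 0.793% and 0.541%, and DESeq2 1.69% and 1.62%. The 52 genes of the hedgehog-related list (*grd*, *grl*, *wrt* and *ptr* genes, many of them expressed in the hypodermis around moults) had a median of 0.43, with 40 above 0 and only *grd-3* called, with a log2 difference of -0.85. With the 4 *smg* libraries alone, 19 of the 52 were called higher and 2 lower, against 2 and 2 in DESeq2 and 0 and 1 in edgeR. N2 replicate 1 lay below N2 replicate 2 in 42 of these 52. What part a difference in stage between the libraries had in the collagen values was not tested.

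**Figure D3:**
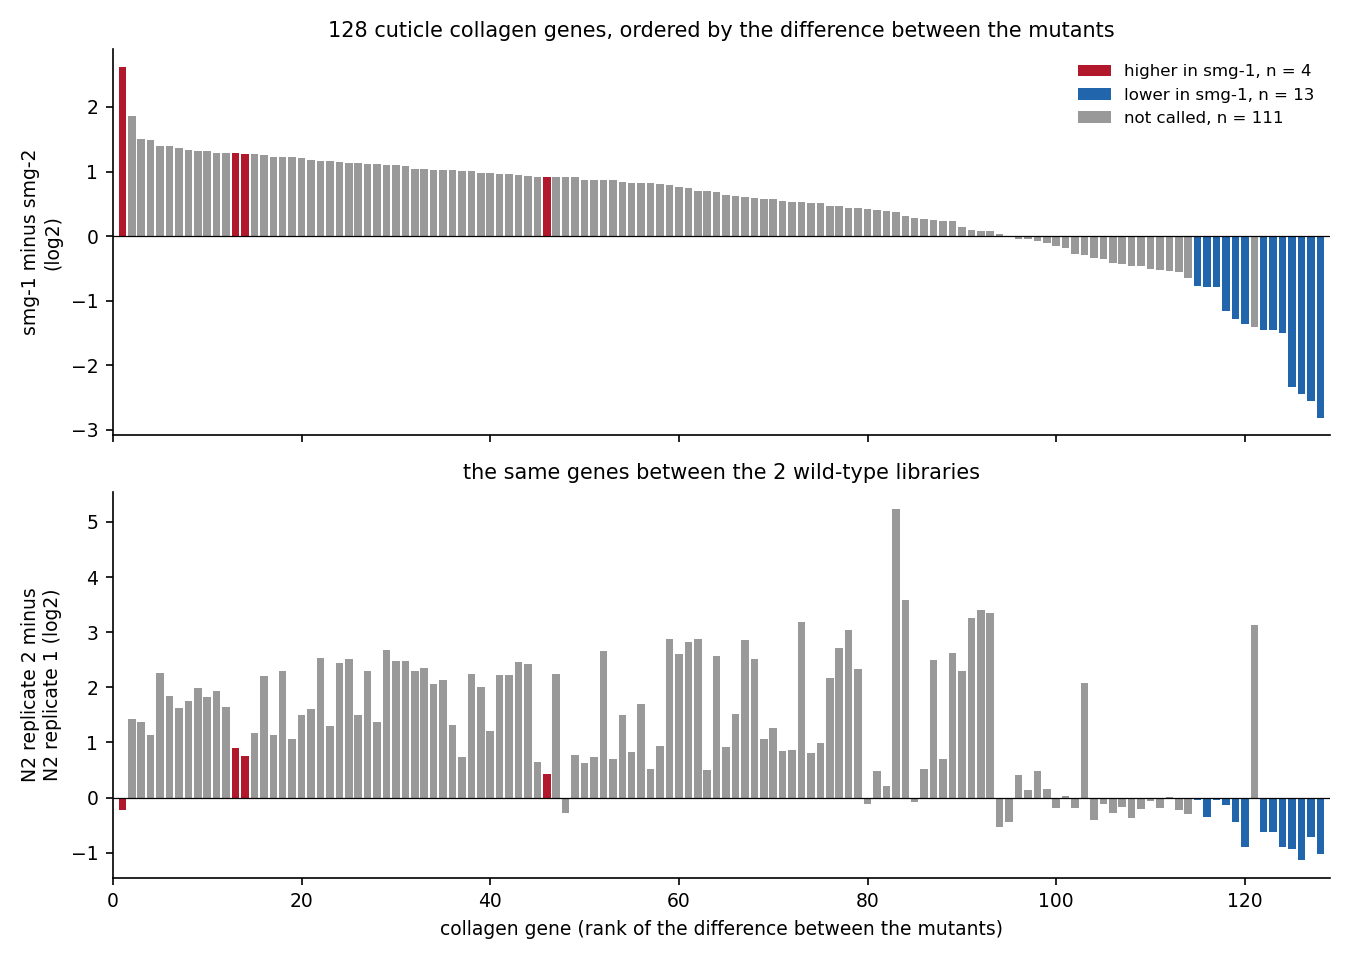
The 128 cuticle collagen genes in order of their difference between the mutants. The upper bars give *smg-1* minus *smg-2* and the lower bars N2 replicate 2 minus N2 replicate 1 (both log2, from 0), with red for the 4 genes called higher in *smg-1*, blue for the 13 called lower and grey for the others. The genes that rank high in the upper panel lie mostly above 0 in the lower one, and the 13 called lower lie below 0 in both.

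Apart from collagens, *hacd-1* was the gene with the largest difference among those lower in *smg-1*. *hacd-1* (chromosome V, 1460369 to 1461613, plus strand), a hydroxyacyl-CoA dehydrogenase, showed 43.7 and 61.7 normalized counts in *smg-1*, 305 and 446 in *smg-2*, and 175 and 265 in N2. It was low in *smg-1* and high in *smg-2*, with wild type between (log2 difference -2.81 ± 0.27 SE, adjusted p = 0.00456). *ech-7*, an enoyl-CoA hydratase, had 209 and 260.4 normalized counts in *smg-1*, 688 and 658 in *smg-2*, and 569.6 and 439 in N2, with the same order of groups (log2 difference -1.53 ± 0.18 SE, adjusted p = 0.00973). *ech-9* had a log2 difference of -1.50 at a low level, with *smg-1* overlapping N2 and *smg-2* above it, and *ech-1.1* was higher in *smg-1* by 1.22. Of the 10 *ech* genes, 7 lay above 0, as did 10 of the 13 acyl-CoA dehydrogenase (*acdh*) genes, none of which was called in limma. Both calls were lost after thinning, with adjusted p-values in limma of 0.0721 for *ech-9* and 0.0683 for *ech-1.1*. *elo-2*, an elongase of palmitic acid, had 628 and 603 normalized counts in *smg-1*, 1135 and 1318 in *smg-2*, and 1229.7 and 1114 in N2. Here *smg-2* overlapped N2 and *smg-1* lay below both (log2 difference -0.99 ± 0.11 SE, adjusted p = 0.00973). *elo-2* was the only gene called with all 8 libraries in limma of 72 on the lipid metabolism list (1.39%, against 0.498% of all genes called lower). On this list 16 genes were higher (22.2%, against 6.59% of all genes) and 15 lower (20.8%, against 6.86%) at an unadjusted p under 0.05. edgeR called 1 higher and 1 lower, against 0.793% and 0.541% of all genes. DESeq2 called 3 and 7, against 1.69% and 1.62%, and the fit of the 4 *smg* libraries alone 14 and 11, against 6.14% and 5.11%. The median of the list was 0.01 and turned negative after thinning. *F42A8.1* had one of the 2 smallest adjusted p-values among the genes lower in *smg-1*, with 316 and 373 normalized counts in *smg-1*, 1367 and 1461 in *smg-2*, and 1654 and 1132 in N2 (log2 difference -2.04 ± 0.17 SE, adjusted p = 0.00433). *ZK550.2* had 35.1 and 22.3 normalized counts in *smg-1*, 130.1 and 123 in *smg-2*, and 139 and 102 in N2, and *F41E6.15*, *F43C9.1*, *C40H1.7* and *B0507.3* had log2 differences of -1.83, -1.85, -2.13 and -1.71. *irg-1*, an infection response gene, had 383 and 463 normalized counts in *smg-1*, 1165 and 912 in *smg-2*, and 1579.7 and 1420.3 in N2, so both mutants lay below wild type and *smg-1* lay farther below. *glp-4*, which encodes a valyl-tRNA synthetase, showed the same order among abundant mRNAs, with 7415 and 8381 normalized counts in *smg-1*, 13901 and 11981 in *smg-2*, and 19404 and 18738 in N2 (log2 difference -0.71 ± 0.11 SE, adjusted p = 0.0225). *sip-1*, a small heat shock protein of oocytes and embryos, had a log2 difference of -0.89. *lea-1*, a relative of plant desiccation proteins, had one of -0.53, a call that TMM factors end (adjusted p = 0.0596 in limma), as does edgeR (adjusted p = 0.0548).

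The listed oocyte and yolk genes lay lower in *smg-1*, and none of them was called in limma or edgeR. All 34 oocyte, germline and eggshell genes listed were below 0, with a median of -0.43 and values from -0.04 for *pgl-1* to -0.74 for *cpg-2*. Of these, 22 had an unadjusted p under 0.05 (64.7%, against 6.86% of all genes in that direction), and 0 were called in limma and in edgeR. DESeq2 called 8 of them and the 4 *smg* libraries alone 22, where these fits called 1.62% and 5.11% of all genes lower. *cpg-2*, a proteoglycan of the eggshell, had 3482 and 3352 normalized counts in *smg-1*, 5559 and 5856 in *smg-2*, and 7955 and 6809 in N2. *puf-5*, an RNA-binding regulator of oocytes, had 685 and 594 normalized counts in *smg-1*, 1091 and 1017 in *smg-2*, and 1404 and 1108 in N2. In both genes *smg-1* was lowest and N2 highest. The 6 vitellogenin genes, which encode yolk proteins made in the intestine, were all below 0, with a median of -0.47. Of the 6, 5 had an unadjusted p under 0.05 (83.3%, against 6.86% of all genes). In limma and edgeR 0 were called, in DESeq2 1 and with the 4 *smg* libraries alone 3. *vit-1* had 1309 and 1396 normalized counts in *smg-1*, 2164 and 3911 in *smg-2*, and 5439 and 3906 in N2, with an unadjusted p of 0.00114 and an adjusted p of 0.0786 in limma. Its *smg-2* libraries spanned a wide range and overlapped N2. The 30 *msp* genes of sperm had a median of -0.19 with 23 below 0. Of the 30, 7 were lower at an unadjusted p under 0.05 (23.3%, against 6.86% of all genes). The 51 other sperm genes had a median of -0.05 with 21 above 0. The 43 histone genes had a median of -0.36, and the medians of the single library pairs ran from -0.65 to -0.09. At an unadjusted p under 0.05, 10 were lower (23.3%, against 6.86% of all genes) and 1 higher (2.33%, against 6.59%). All 33 proteasome genes were below 0, but their median of -0.14 lay inside the quartiles of all genes (-0.19 and 0.17). It was -0.09 under quantile normalization. In bulk samples of whole animals, fewer cells of a type and less RNA per cell cannot be told apart. N2 replicate 1 was above N2 replicate 2 in 32 of the 34 oocyte genes and in 6 of the 6 vitellogenin genes, so that the 2 wild-type libraries differed here too, and its part in the values of the mutants was not tested. Against N2 the oocyte list had a median of -0.75 in *smg-1* and -0.32 in *smg-2*, and the vitellogenins -1.31 and -0.63.

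Lists close to RNA metabolism held 0 or 1 calls with all 8 libraries in limma. With 0.945% of all genes called, few calls are expected in lists of this size. The 8 SR splicing factors (*rsp-1* to *rsp-8*), several of which make NMD-sensitive splice forms, had a median of -0.16 between the mutants. They held 0 calls in limma, edgeR and DESeq2. At an unadjusted p under 0.05, 2 were lower (25%, against 6.86% of all genes), and the 4 *smg* libraries alone called 1 lower. Their medians against N2 were 0.46 (*smg-1*) and 0.61 (*smg-2*). The ribosomal protein genes *rpl-3*, *rpl-7A* and *rpl-12*, whose unproductive splice forms are NMD substrates, had log2 differences of -0.27, -0.23 and -0.25, and 0 were called in limma, edgeR and DESeq2. *rpl-7A* had 17208 and 17814 normalized counts in *smg-1*, 20131 and 20834 in *smg-2*, and 9291 and 9930.2 in N2, so both mutants lay well above wild type with *smg-2* the higher. The 39 genes of endogenous RNAi and the Argonautes had a median of -0.08 and 0 calls in limma, edgeR and DESeq2. At an unadjusted p under 0.05, 4 were lower (10.3%, against 6.86% of all genes). The 4 *smg* libraries alone called 5 of the 39 lower, against 5.11% of all genes. Of 191 annotated pseudogenes tested, the *smg* libraries alone called 4 higher and 15 lower, against 6.14% and 5.11% of all genes. With all 8 libraries 1 was called (0.524%, against 0.945% of all genes). It was WBGene00044515, which had 192 and 184 normalized counts in *smg-1*, 697 and 699.8 in *smg-2*, and 3.51 and 7.81 in N2. It was almost silent in wild type and far higher in both mutants, with *smg-2* 3.7-fold above *smg-1* (log2 difference -1.89 ± 0.35 SE, adjusted p = 0.04). Thinning ended this call (adjusted p = 0.0766 in limma), as did a pseudocount of 0.1 (adjusted p = 0.0644 in limma).

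**Figure D4:**
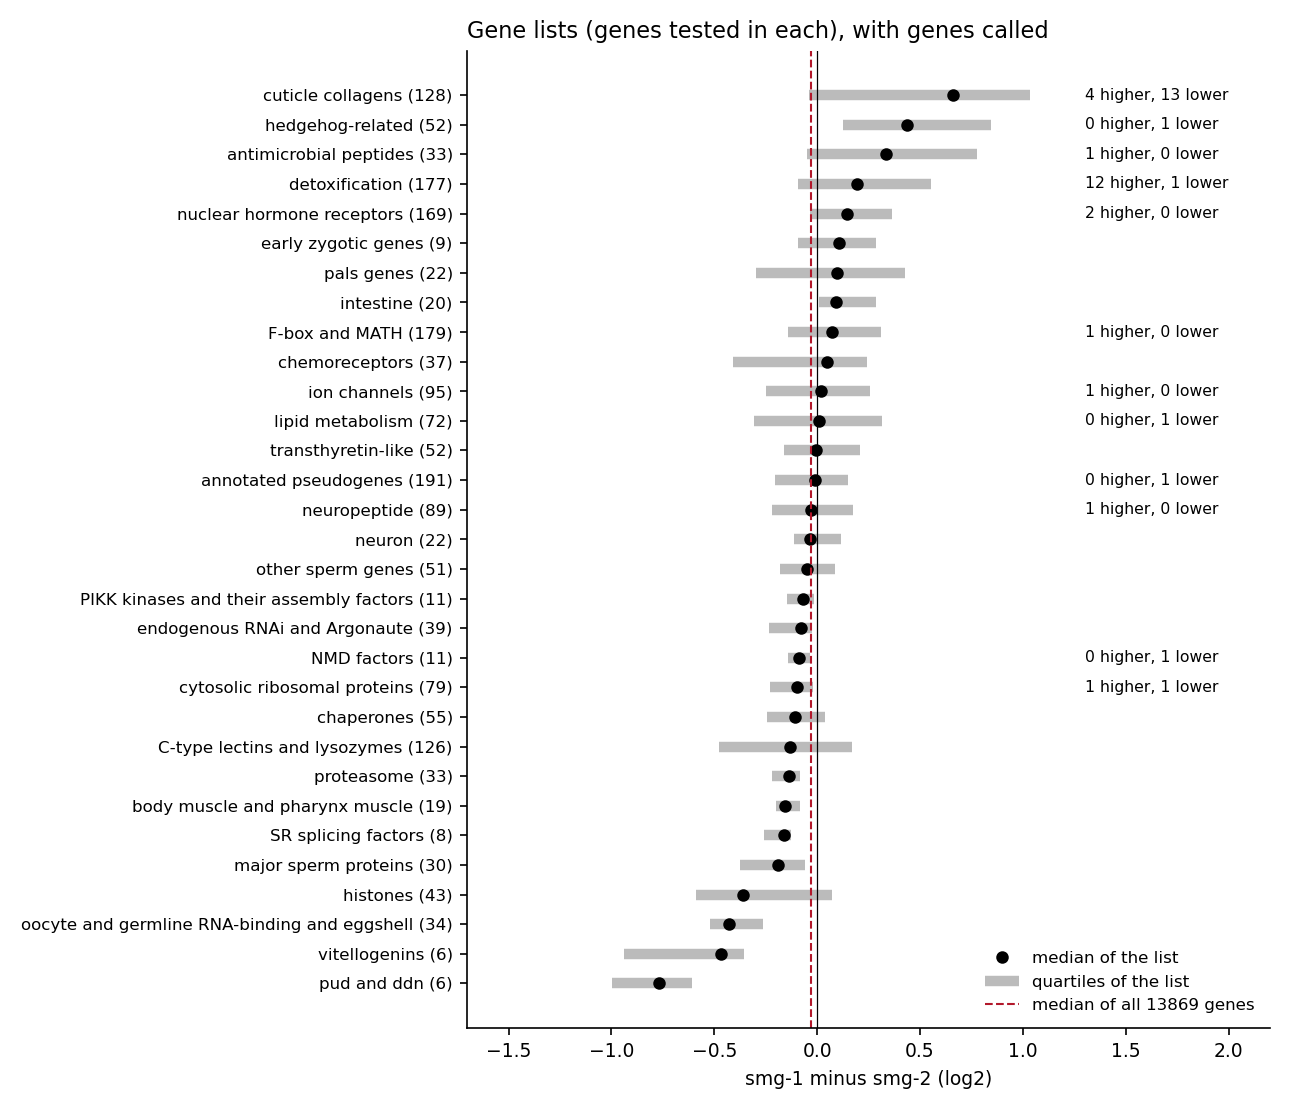
Difference between the mutants (log2 of *smg-1* minus *smg-2*) in gene lists with at least 6 genes tested, with the number tested in brackets. Black points are list medians, grey bars run from the lower to the upper quartile, the dashed line is the median of all genes (-0.03), and the text at the right gives the genes called higher and lower in *smg-1*. Collagens have the highest median (0.66) although 13 of their 17 called genes are lower, and all oocyte genes lie below 0 with none called.

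Genes that were up against N2 in both mutants were called between the mutants at a share near that of all genes. A gene was taken as up in a mutant at a log2 difference from N2 above 1 with an unadjusted p under 0.05, which held for 1246 genes (8.98%) in *smg-1* and 951 (6.86%) in *smg-2*, and these comparisons share the N2 libraries. Of the 809 genes up in both, 10 (1.24%) were called between the mutants, against 0.945% of all genes, and their median difference was 0.01, with 669 of the 809 within 0.5 of 0. edgeR called 19 of the 809, DESeq2 22 and the fit of the 4 *smg* libraries alone 92, where these fits called 1.33%, 3.31% and 11.2% of all genes. The 7 that were higher in *smg-1* were *cyp-13B1*, *ugt-33*, *lgc-54*, *catp-3*, *F32D8.11*, *H20E11.3* and *nhr-101*, and the 3 that were higher in *smg-2* were WBGene00044515, *C53H9.2* and *E02C12.8*. Thinning ended the calls of *H20E11.3*, *E02C12.8*, *ugt-33* and WBGene00044515 (adjusted p = 0.0619, 0.0625, 0.0954 and 0.0766 in limma). *C53H9.2* (chromosome I, 1832897 to 1834763, plus strand) was the most abundant of them, with 11645 and 11218 normalized counts in *smg-1*, 24412 and 24238 in *smg-2*, and 2401 and 1895 in N2. Both mutants stood far above wild type and *smg-2* stood 2.13-fold above *smg-1* (log2 difference -1.09 ± 0.15 SE, adjusted p = 0.0127). *nhr-101*, a nuclear hormone receptor, went the other way with 2397 and 3055 normalized counts in *smg-1*, 1502 and 1542 in *smg-2*, and 293 and 283 in N2.

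How many of the genes up in one mutant only passed the direct test depended on the fit. Of 437 genes up in *smg-1* only, 29 were called between the mutants (6.64%, against 0.447% of all genes called higher). All 29 were higher in *smg-1*, and the choice of these genes favours this direction and raises this share. The median difference of the 437 was 0.89, and 245 of them had an unadjusted p under 0.05. Of the 437, edgeR called 44, DESeq2 64 and the fit of the 4 *smg* libraries alone 252. These fits called 1.33%, 3.31% and 11.2% of all genes. Of 142 genes up in *smg-2* only, 4 were called (2.82%, against 0.498% of all genes called lower), a share that their choice also raises. The fit of the 4 *smg* libraries alone called 39, and the median difference over the 142 was -0.37. The 4 called with all 8 libraries were *Y48E1B.8*, *ech-9*, *F36G9.3* and *eppl-1*. *eppl-1*, which encodes a putative ethanolamine-phosphate lyase, had 2024 and 1909 normalized counts in *smg-1*, 3294 and 3564 in *smg-2*, and 1852 and 1433 in N2, so both mutants lay above wild type although only *smg-2* passed the threshold against it. *F36G9.3* had 112 and 117 normalized counts in *smg-1*, 278 and 304 in *smg-2*, and 130.5 and 134 in N2. *Y17G9A.3* was next, with a log2 difference of -1.97 and an adjusted p of 0.0747 in limma. Fewer genes were down against N2, with 170 (1.23%) in *smg-1* and 53 (0.382%) in *smg-2* at a log2 difference below -1 and an unadjusted p under 0.05. Of 139 that were down in *smg-1* only, 28 were called (20.1%, against 0.498% of all genes called lower), and 76 with the 4 *smg* libraries alone. All 28 were lower in *smg-1*, and the choice of these genes favours this direction and raises this share. Of 22 that were down in *smg-2* only, 2 were called, *F56A4.3* and *irld-35* (9.09%, against 0.447% of all genes called higher). The same kind of choice raises this share.

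In the called genes, *smg-1* was usually the mutant farther from wild type. Of the 62 genes higher in *smg-1*, both *smg-1* libraries lay above both N2 libraries in 61, while *smg-2* lay above N2 in 28, overlapped it in 16 and lay below it in 18. The exception was *hpd-1*, an enzyme of tyrosine breakdown, which had 1685 and 1799.5 normalized counts in *smg-1*, 1211 and 1105 in *smg-2*, and 1857 and 1905 in N2, with both mutants below wild type. Of the 69 genes lower in *smg-1*, both *smg-1* libraries lay below N2 in 60, and *smg-2* lay above N2 in 34, overlapped it in 25 and lay below it in 10. The *smg-1* mean was farther from N2 than the *smg-2* mean in 57 of the 62 and in 52 of the 69, against 64.4% of all genes tested. Over all genes tested, both *smg-1* libraries lay above N2 in 4156 and below it in 4520, and both *smg-2* libraries in 3525 and 3619. In 42 of the 131 called genes (32.1%) the mutants stood on opposite sides of wild type, against 2.19% of all genes tested, a share that the choice of genes that differ between the mutants raises. Of the 17 with *smg-1* above N2, *F56A4.3*, *irld-35*, *cyp-34A9*, *T10B5.8* and *col-180* differed most between the mutants, and of the 25 with *smg-1* below N2, *hacd-1*, *C40H1.7*, *Y48E1B.8*, *F43C9.1* and *C08E8.4*. *C40H1.7* had 33 and 42.8 normalized counts in *smg-1*, 168 and 167 in *smg-2*, and 93.3 and 91.4 in N2. *F43C9.1* had 45.8 and 40.3 normalized counts in *smg-1*, 158 and 158 in *smg-2*, and 103 and 72.6 in N2. In both, wild type stood between the mutants.

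**Figure D5:**
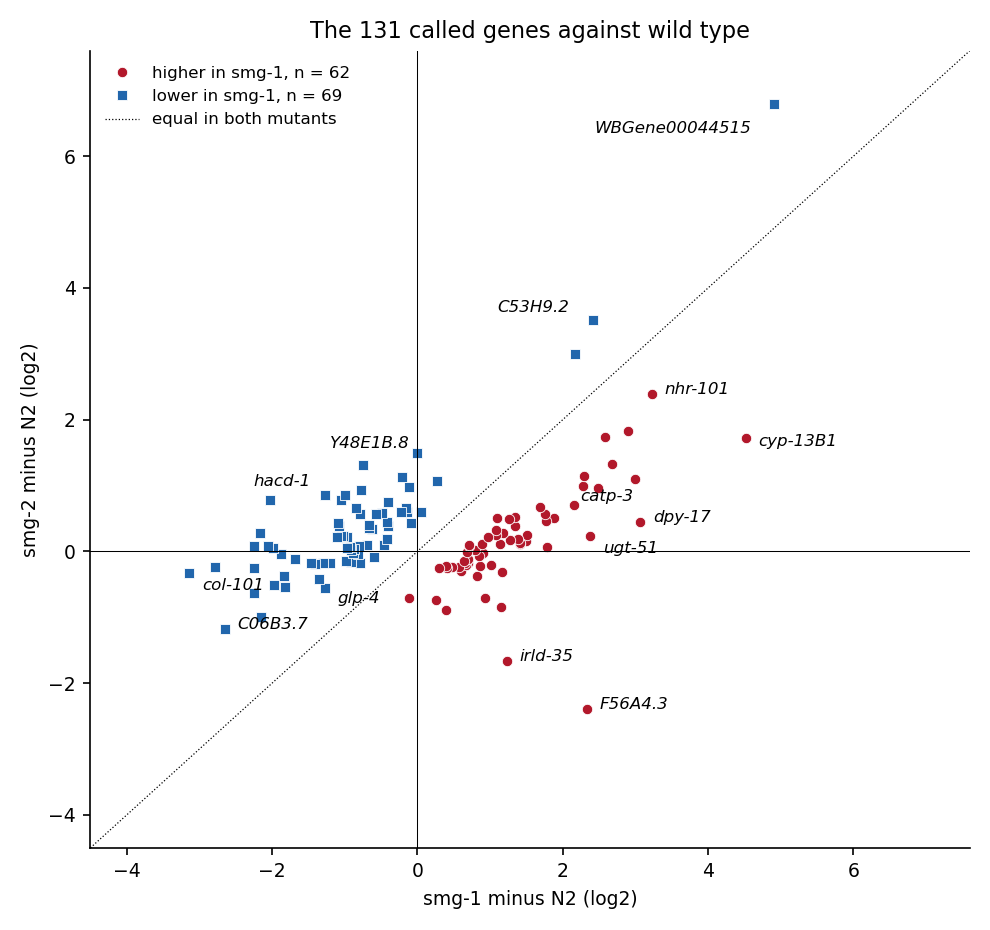
The 131 called genes placed by their difference from wild type, *smg-1* minus N2 on the horizontal axis and *smg-2* minus N2 on the vertical axis (log2, means of 2 libraries each). Red circles are higher and blue squares lower in *smg-1* than in *smg-2*, and the dotted line marks equal values in both mutants. Most points lie closer to the horizontal line at 0 than to the vertical one, since *smg-1* was farther from N2 in 57 of the 62 and 52 of the 69. The *smg-2* libraries overlapped N2 in only 16 of the 62 and 25 of the 69. Few points lie far out in both mutants, among them *C53H9.2*, *nhr-101* and *cyp-13B1*. The N2 libraries enter both axes.

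The called genes were spread over the chromosomes with the highest share on V. Chromosome V held 29 of the 62 genes higher in *smg-1* and 22 of the 69 lower, or 1.91% of its 2669 genes tested, against 0.52% on chromosome I, 0.723% on II, 0.778% on III, 0.896% on IV and 0.691% on X. Chromosome I, which carries both mutated genes, held 2 genes that were higher and 10 that were lower. Within 1 Mb of *smg-1*, 3 of 412 other genes tested were called (0.728%): *rps-17*, *dhp-1* and *K10D3.6*. Within 1 Mb of *smg-2*, 2 of 209 were called (0.957%): *C53H9.2* and *Y51F10.7*, both lower in *smg-1*. *K10D3.6* had 91.6 and 84.8 normalized counts in *smg-1*, 205 and 199.8 in *smg-2*, and 166 and 181 in N2, and *Y51F10.7* had 521 and 500.2 normalized counts in *smg-1*, 873 and 944 in *smg-2*, and 521 and 684 in N2. These shares lay near the 0.945% of all genes. Called genes less than 10000 bp apart formed 7 adjacent pairs. In 6 of them both genes went the same way: *cyp-34A8* with *cyp-34A9*, *cyp-13B1* with *C29F7.2* and *C10C5.3* with *C10C5.4* were higher in *smg-1*, and *col-95* with *col-96*, *col-142* with *col-143* and *ZK813.2* with *ZK813.1* were lower. The seventh pair, *col-143* and *lgc-54*, moved in opposite directions. The called genes were better covered than the rest, with a median of 483 normalized counts over the 8 libraries, against 186 over all genes tested, and 6 of the 131 had a mean under 50 in the higher mutant. At this depth and with 2 libraries a group, differences in genes with few reads may go undetected. Reads with several matches were dropped, so close families (*col*, *cyp*, *ugt*, *msp* and histone genes) are read from sequence their members do not share. Genes that overlap another, on either strand, are uncertain, as no strand setting is stated.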

How the data were processed

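RNA of whole animals was measured. According to the methods of the study, the authors depleted rRNA, made ScriptSeq libraries, mapped reads with STAR to WBcel235, dropped reads with several matches, and took exonic reads of protein-coding genes. The labels also name a TruSeq kit, and the submitters' processing notes give STAR as version 2.5.4a. The deposited table gives a signal for each gene and library, which the authors obtained from read counts with DESeq2 size factors. All values (100%) were whole multiples of one step per library within 0.001 read, so reads were recovered. Library totals at 20°C ran from 3523986 to 14209955 reads.

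Here, genes were kept at a mean of 10 or more over the 8 libraries at 20°C (13869 of 15106). Their log2(value + 1) was fitted in limma 3.58.1 (R 4.3.3) with lmFit and a trended eBayes, without a replicate block, leaving 4 residual degrees of freedom, and *smg-1* was contrasted with *smg-2*. A gene was called at a Benjamini-Hochberg adjusted p under 0.05. Folds are on the log2(value + 1) scale and understate changes of low genes. Alternatives were edgeR 4.0.16 and DESeq2 1.42.0, both on recovered reads, other pseudocounts, filters and scalings, a fit of the *smg* libraries alone, a replicate block and leaving out each library. Leaving out the columns taken as *clk-2* was added after seeing the data. Positions and biotypes come from Ensembl release 115 of WBcel235, where 14967 gene IDs matched, and 14720 had a symbol. Of the columns, 0 were left without a sample. Scripts were tested on simulated reads with 100 genes changed by 1 and 100 by 2 on the log2 scale. There limma recovered 78% and 100% of them and also called 24 unchanged genes. edgeR and DESeq2 each called 27 unchanged genes, so calls may include more false ones than the threshold states.

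The contrast, the gene lists and the rule for named genes were chosen with earlier results of these data known. Genes named by rule were *smg-1* to *smg-7*, the 12 called genes with the largest difference each way with a mean of at least 50, the 6 with the smallest adjusted p each way, up to 4 of each list with 3 or more called members, the 4 called genes nearest to each mutated gene, 5 each of those up in one mutant only, and 5 each way with the mutants on opposite sides of N2. Other genes named were chosen after their values were seen. The 25°C libraries were not used here.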

Additional observations from a re-analysis of the deposited data

Results flagged for a closer look

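In 42 called genes (32.1%, against 2.19% of all genes tested) the libraries of the mutants lay on opposite sides of wild type: both libraries of one mutant lay above both N2 libraries and both libraries of the other lay below them. In 17 of the 42, *smg-1* was above and *smg-2* below N2, and in 25 it was the other way round. The difference between the mutants was tested directly in each of these genes (limma, adjusted p under 0.05), which is how they were called. Against N2, 3 of the 42 (*F56A4.3*, *cyp-34A9* and *F43C9.1*) differed in both mutants at an adjusted p under 0.05 in limma, 25 in *smg-1* only, 7 in *smg-2* only and 7 in neither.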

How the results depend on the processing

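All 131 called genes kept their direction under every alternative in which they were tested. In fits of the same values this was fixed in advance, since the libraries of the mutants did not overlap in any of the 131. The number of calls depended on how the spread was estimated. Counts of genes higher and lower in *smg-1*, 62 and 69 as reported, became 851 and 709 with the 4 *smg* libraries alone, 189 and 181 in DESeq2, 110 and 75 in edgeR, and 101 and 93 after quantile normalization. The study's thresholds gave 251 and 122, and keeping only the called genes that differed by over 2-fold left 31 and 44. Leaving out 1 *smg* library left 0 to 1 genes higher and 0 to 2 lower, *F56A4.3*, *F42A8.1*, *hacd-1* and *C06B3.7* among them. Replicate numbers are shared in the labels, but nothing says that they mark a common culture, and the deviations of equal numbers correlated at only 0.04. With the number as a replicate block, 31 genes were higher and 34 lower. Of the genes up against N2 in *smg-1* only, 29 passed the direct test, against 252 with the *smg* libraries alone, 64 in DESeq2, 44 in edgeR, 16 with the replicate block and 0 to 1 without single libraries. Of those up in *smg-2* only, 4 passed, against 39, 11, 5 and 2 in the same fits, 2 with a minimum mean of 100 and 0 without any 1 *smg* library. The fits on the *smg* libraries alone or without 1 library hold fewer samples, and the cause of the other shifts was not tested. Without the columns taken as *clk-2*, chosen after seeing the data, 73 genes were higher and 94 lower, and 125 of the 131 calls remained. Pseudocounts of 0.1 and 10, TMM factors, thinning and no filter moved no count of higher or lower genes by over 1.5 times, and 121, 131, 123, 107 and 128 of the 131 calls remained, in that order.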

Other observations

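Some called genes belong to one breakdown pathway, and the other enzymes of it were looked up after the calls were seen. In pyrimidine breakdown, *dhp-1* (dihydropyrimidinase) had 218 and 228 normalized counts in *smg-1*, 369 and 514 in *smg-2*, and 358 and 332 in N2, and *upb-1* (beta-ureidopropionase), which acts after it, had 1595 and 1818 normalized counts in *smg-1*, 2494 and 2745 in *smg-2*, and 3074 and 2819 in N2. Both were lower in *smg-1* than in *smg-2*, with log2 differences of -0.96 and -0.62, and the call of *dhp-1* was lost after thinning (adjusted p = 0.0712 in limma). The enzyme of the step before them, *dpyd-1*, had 2491 and 2394 normalized counts in *smg-1*, 2729 and 2901 in *smg-2*, and 3084 and 3013 in N2, a log2 difference of -0.20 that was not called (adjusted p = 0.447 in limma).

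In tyrosine breakdown, 1 of the enzymes looked up was called. *hpd-1* was higher in *smg-1* than in *smg-2* by 0.59 on the log2 scale, with *smg-2* below wild type and *smg-1* closer to it, while *tatn-1* (0.31), *hgo-1* (-0.16), *gst-42* (-0.06) and *fah-1* (-0.11), which act before or after it, were not called.

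*daao-1*, a D-amino acid oxidase, had 197 and 193 normalized counts in *smg-1*, 108 and 85.4 in *smg-2*, and 63.1 and 56.2 in N2. Both mutants lay above wild type and *smg-1* lay higher (log2 difference 1.01 ± 0.19 SE, adjusted p = 0.0464), a call that thinning ends (adjusted p = 0.0718 in limma).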
